A study of Mus musculus with 17 samples.

Results

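The transcripts of 39 genes of the unfolded protein response and the integrated stress response were examined in the left ventricular apex of mice 3 weeks after transverse aortic constriction (TAC) or Sham surgery. TAC narrows the aorta and loads the left ventricle with pressure. The genes were taken by symbol from the table of 21798 genes and all 39 were present. They were treated as 3 sets, with 9 genes for sensors and signalling, 17 for endoplasmic reticulum (ER) folding and degradation, and 13 Atf4-linked genes, most of which make amino acids or one-carbon units. Fgf21 failed the filter on low values described below, which left 38 of the 39 among 16218 genes tested.

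Bulk RNA-sequencing covered 17 libraries, each from 1 mouse, of which 8 followed Sham surgery (5 with Veh and 3 with 29P) and 9 followed TAC (3 with Veh and 6 with 29P). All mice were male wild-type C57Bl6/J aged 7 to 8 weeks at surgery, and all were gavaged 6 times over 2 weeks, beginning 1 week after the operation. Veh mice received saline and 29P mice received 50 µg/kg of 29P, an oral prodrug of an RGD mimetic peptide that binds αvβ3 integrin. Libraries are named by the number in their label, such as S14. The authors had removed a further TAC Veh library because it clustered with Sham mice, which bears on the comparisons of that group. Values are CPM, the reads of a gene scaled to a fixed total per library, and differences are log2 fold changes of CPM + 0.1 with their standard error (SE), from 1 limma model of the 4 group means. A gene was called higher or lower at a Benjamini-Hochberg adjusted p of 0.05 or less over all genes tested.

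When unfolded proteins build up in the ER, 3 sensors in its membrane respond. Ern1 (IRE1α) splices the mRNA of the transcription factor Xbp1, Atf6 is cut in the Golgi to release a transcription factor, and Eif2ak3 (PERK) phosphorylates Eif2s1, the alpha subunit of the initiation factor eIF2. Xbp1 and Atf6 induce chaperones and degradation factors of the ER. Phosphorylated eIF2 slows protein synthesis and favours translation of Atf4, which induces genes of amino acid synthesis and transport. Other eIF2 kinases, which sense amino acid shortage, haem shortage or mitochondrial stress, reach Atf4 without the ER, and that wider route is the integrated stress response. Splicing of Xbp1, cleavage of Atf6 and phosphorylation of Eif2s1 do not show in gene-level RNA values.

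Both arms act on known promoter sequences, shown here for genes on which the results below turn. Of the 39 genes, 33 had an entry among the RefSeq promoters of GRCm38.p6, each 300 bases long with 250 before the start of transcription. The ER stress element, which binds Atf6 together with NF-Y, was searched on both strands as the half-sites CCAAT and CCACG with any 9 bases between them. It was found in Calr, Canx, Pdia6, Creld2 and Syvn1, all of the ER folding and degradation set, and in 0.137% of the 27025 genes with a promoter. The match is in capitals, and reads as the reverse complement in Calr.
Calr (chr8:84847050-84847118, minus strand): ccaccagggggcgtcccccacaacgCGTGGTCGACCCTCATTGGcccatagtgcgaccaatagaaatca
Canx (chr11:50325775-50325843, minus strand): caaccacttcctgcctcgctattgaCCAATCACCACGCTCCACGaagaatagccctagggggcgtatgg
Pdia6 (chr12:17266466-17266534, plus strand): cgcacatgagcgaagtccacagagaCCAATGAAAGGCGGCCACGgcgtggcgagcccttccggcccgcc

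The composite C/EBP-ATF element, through which Atf4 acts with a C/EBP partner, was searched on both strands as TGATGNAA. It was found in Asns, Pycr1, Trib3, Chac1, Nupr1 and Fgf21 of the Atf4-linked set and in Herpud1 of the ER set. It was also in 4.51% of all genes with a promoter. The match of Trib3 lay after the RefSeq start, from which distances are counted here, and is not shown. In the GENCODE vM21 annotation the matches of Asns and Nupr1 lie after the start of the gene and that of Trib3 before it. Nupr1 starts there at 126630861 on the minus strand, so that its match lies within the gene. The matches lay 15 bases before the start in Asns, 95 in Pycr1, 102 in Nupr1, 104 in Herpud1 and 185 in Chac1, and those of Nupr1, Chac1 and Herpud1 read as the reverse complement.
Asns (chr6:7693210-7693257, minus strand): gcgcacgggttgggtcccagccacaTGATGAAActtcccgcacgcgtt
Pycr1 (chr11:120643819-120643876, minus strand): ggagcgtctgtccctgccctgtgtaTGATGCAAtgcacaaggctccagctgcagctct
Nupr1 (chr7:126625548-126625605, minus strand): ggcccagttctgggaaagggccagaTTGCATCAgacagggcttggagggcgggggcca
Chac1 (chr2:119351024-119351081, plus strand): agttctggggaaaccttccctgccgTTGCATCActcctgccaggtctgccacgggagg
Herpud1 (chr8:94386292-94386349, plus strand): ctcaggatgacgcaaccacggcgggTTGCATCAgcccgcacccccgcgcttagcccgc
The UPR element TGACGTG was in 0 of the 33 and in 2.22% of all genes with a promoter. Of the 5 genes printed with the C/EBP-ATF element, Asns, Pycr1 and Nupr1 rose after TAC on the deposited scale and Chac1 and Herpud1 did not pass the test, as described below.

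In Sham Veh mice the most abundant of the 39 transcripts were ER genes and the scarcest were Atf4-linked genes. Per kilobase of annotated exon, mean levels were 90.8 CPM for Calr, 60.7 for Canx and 51.1 for Pdia3, and 31.0 for Atf4 itself. The Atf4-linked genes ran from 0.0288 CPM per kilobase for Fgf21, 0.245 for Phgdh and 0.301 for Pycr1 to 6.02 for Shmt2, which was above the ER genes Hyou1 (4.96) and Sdf2l1 (4.78). The sensor Ern1 was at 1.19 and Eif2ak3 at 1.40 CPM per kilobase. In 14 of the 39 genes the GENCODE vM21 annotation places another gene on the opposite strand and in 8 on the same strand. Whether the reads were counted by strand is not given in the sources used here, so reads of such pairs cannot be told apart.

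Library S18 of TAC 29P and libraries S19 and S20 of Sham Veh held atrial transcripts, with a sum of 5 atrial markers of 1653 to 2702 CPM against 18.4 to 93.1 in the other 14. The 7 ventricular cardiomyocyte markers summed to 31626 to 47754 CPM in all 17. Depth, estimated from the step between low values, was such that 1 CPM stood for 14.2 reads (S14 of Sham 29P) to 23.8 reads. Mitochondrially encoded transcripts took 29.1 to 40.0% of the total in Sham and 23.6 to 29.4% in TAC libraries. On the deposited scale the median gene was higher after TAC by 0.34 on the log2 scale in Veh and by 0.36 in 29P mice. After rescaling with trimmed mean of M values (TMM) factors these medians were 0.01 and 0.02. The calls for all genes split 92.3% higher in Veh and 96.5% in 29P mice as deposited, and 42.0% and 54.0% after TMM. The genes on which the results turn are therefore given with their TMM values.

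Of the 38 genes, 11 rose in TAC Veh compared with Sham Veh and 0 fell, where 23.6% of all genes tested were called higher and 1.98% lower. They were Ern1, Eif2ak3 and Ppp1r15b among the sensors, Sec61a1 and Edem1 among the ER genes, and Asns, Aldh18a1, Pycr1, Mthfd2, Sesn2 and Nupr1 among the Atf4-linked genes. After TMM, 1 gene, Aldh18a1, was called higher (background 4.27%) and 0 lower (background 5.9%), although all 11 kept a positive log2 fold change. In TAC 29P compared with Sham 29P, 19 rose and 0 fell on the deposited scale, where the background was 31.5% higher and 1.15% lower. After TMM, 6 were higher (Sec61a1, Asns, Aldh18a1, Psat1, Mthfd2 and Nupr1, background 6.06%) and 2 lower (Canx and Herpud1, background 5.16%), and after TMM without S14 0 were higher and 0 lower. As deposited, the count over the whole list was thus not far from the background in Veh mice.

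Many of these calls changed when 1 library was left out. Without S2 of TAC Veh 0 genes were called higher in Veh mice, and without S16 of TAC Veh 4 were (Ern1, Eif2ak3, Aldh18a1 and Pycr1). Without S6 of Sham Veh, Edem1, Asns and Nupr1 were not called, and Sesn2 was not without S12 of TAC Veh or S19 of Sham Veh. Asns was called in only 4 of 17 fits that each left out 1 library. In 29P mice 3 genes (Aldh18a1, Psat1 and Mthfd2) were called without S14 of Sham 29P and 10 without S3 of TAC 29P. The calls of Atf4 and Ddit3 were also lost without S9, S11 or S18 of TAC 29P, and that of Sesn2 without S9, S11 or, in Sham 29P, S15. Derl1 was called in 5 of the 17 fits. When the model took the run that each animal number belongs to as a further term, 13 were called in Veh mice and 5 in 29P mice (Atf4, Ddit3, Psat1, Mthfd2 and Nupr1). Only S4 of the Sham 29P libraries shares a run with any TAC 29P library, so surgery and run are largely mixed in 29P mice. Without the 3 atrial libraries 10 and 15 were called higher, and Herpud1 lower in 29P mice. The share of all genes called is not given here for these fits or for TMM without S14. Whether these genes lost more calls than all genes did was not tested.

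The Atf4-linked genes had a median log2 fold change of 0.85 in Veh and 1.06 in 29P mice, above the medians of all genes. The sensors had medians of 0.48 and 0.39 and the ER genes of 0.10 and 0.43, beside 0.34 and 0.36 for all genes. After TMM the medians in Veh and 29P mice were 0.52 and 0.71 for the Atf4-linked genes and 0.14 and 0.03 for the sensors. Those of the ER genes were −0.24 and 0.075, and those of all genes 0.01 and 0.02. Of 12 Atf4-linked genes tested, 6 rose in Veh and 9 in 29P mice, and 1 and 5 after TMM. Of 17 ER genes, 2 and 6 rose, and 0 and 1 after TMM. Of 9 sensors, 3 and 4 rose, and 0 in both after TMM. Of all genes tested, 23.6% and 31.5% were called higher as deposited, and 4.27% and 6.06% after TMM.

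**Figure D1:**
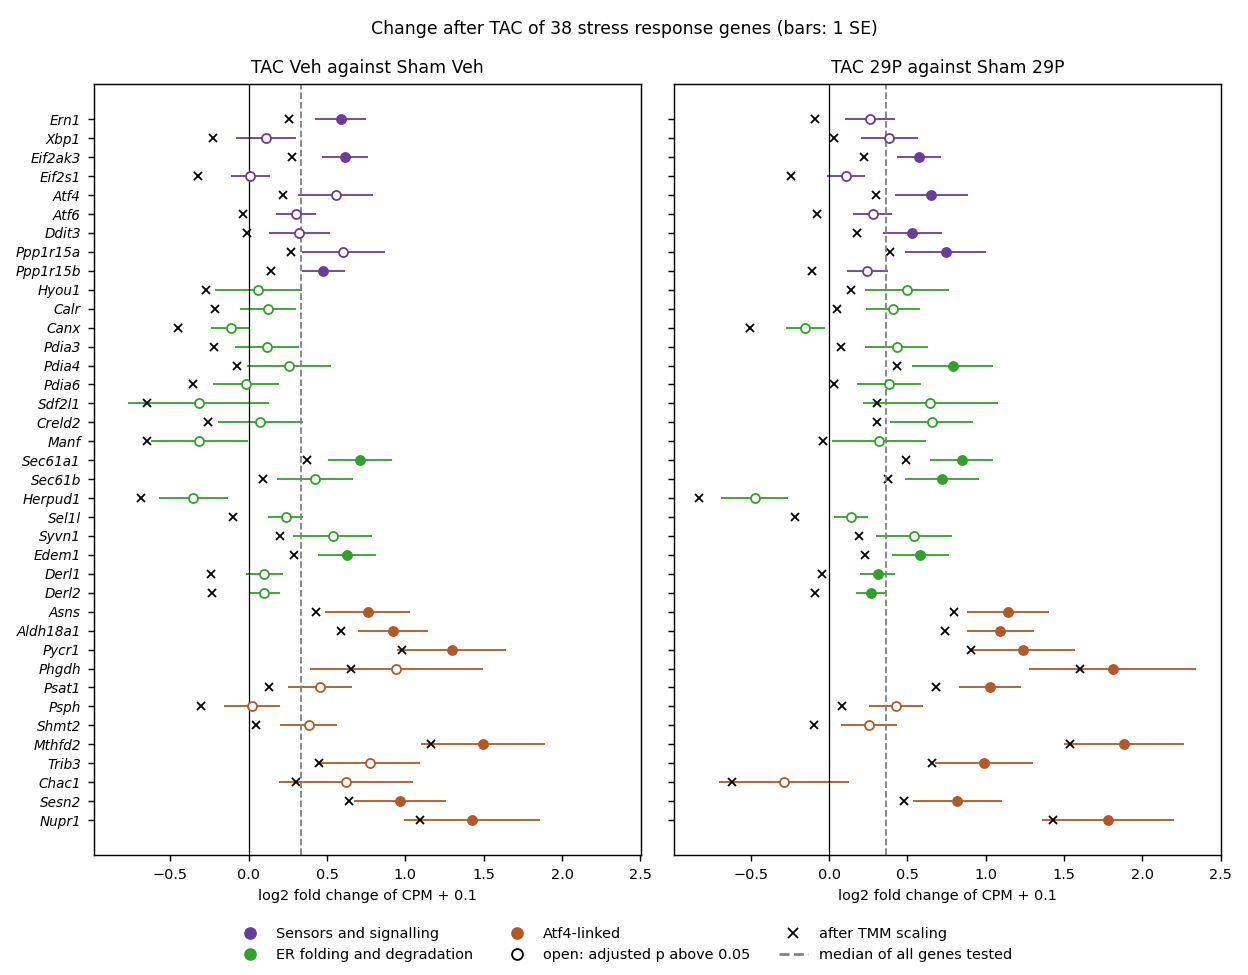
Log2 fold change of CPM + 0.1 after TAC for 38 genes in Veh (left) and 29P mice (right), with bars of 1 SE, filled circles for an adjusted p of 0.05 or less, crosses for the value after TMM and a dashed line at the median of all genes tested (0.34 and 0.36). Most Atf4-linked genes lie to the right of the dashed line (11 of 12 in Veh, 10 of 12 in 29P mice), while 4 of 17 ER genes do in Veh and 11 of 17 in 29P mice.

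The sensor Eif2ak3 (chr6:70844515-70905245, plus strand) rose in both surgery comparisons. It was at 9.84, 7.67, 8.27, 7.97 and 8.49 CPM in Sham Veh, 8.76, 7.4 and 9.27 in Sham 29P, 15.5, 11.3 and 12.4 in TAC Veh, and 10.2 to 14 (median 13.1) in TAC 29P. All 9 TAC libraries lay above all 8 Sham libraries, which held for 9.52% of all genes. The log2 fold change was 0.61 (SE 0.15, limma adjusted p = 0.00902) in Veh and 0.57 (SE 0.14, limma adjusted p = 0.00904) in 29P mice. After TMM these were 0.28 (adjusted p = 0.15) and 0.22 (adjusted p = 0.226), and the libraries overlapped.

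Ern1 (chr11:106394650-106487852, minus strand) was called higher in Veh but not in 29P mice, and the difference between the changes was not called. Its values were 7.29 to 11.6 CPM in the 5 Sham Veh and 13.4 to 15.5 in the 3 TAC Veh libraries, without overlap as in 27.6% of all genes. Those in Sham 29P were 8.18, 11.3 and 11.6 and those in TAC 29P 10.8 to 14.7 (median 12), which overlap. The log2 fold change was 0.59 (SE 0.16, limma adjusted p = 0.0177) in Veh and 0.26 (SE 0.16, limma adjusted p = 0.202) in 29P mice. The 2 changes differed by −0.33 (95% interval −0.80 to 0.15, limma adjusted p = 0.999). After TMM the changes were 0.25 and −0.09, and the Veh groups overlapped.

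Xbp1 (chr11:5520659-5525893, plus strand), the transcript that Ern1 splices, did not pass the test. Its log2 fold change was 0.11 (SE 0.19) in Veh and 0.39 (SE 0.18) in 29P mice. The 8 Sham libraries spanned 38.6 to 72.8 CPM and the 9 TAC libraries 54.6 to 94.7, the highest being S18. Atf6 (chr1:170704674-170867771, minus strand) had log2 fold changes of 0.30 (SE 0.13, limma adjusted p = 0.0829) and 0.28 (SE 0.12, limma adjusted p = 0.0871), and −0.03 and −0.08 after TMM. Xbp1 was at −0.23 and 0.03 after TMM.

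Atf4 (chr15:80255184-80257541, plus strand), the transcription factor of the integrated stress response, was called higher in 29P mice. Its CPM were 56.0, 54.6, 68.3, 79.4 and 106.8 in Sham Veh, 57.5, 38.2 and 68.9 in Sham 29P, 83.9, 96.8 and 138.4 in TAC Veh, and 67.2 to 121.3 (median 78.4) in TAC 29P. The highest Sham value, 106.8, was that of S20 and the highest TAC 29P value, 121.3, that of S18, both with atrial transcripts. The log2 fold change was 0.56 (SE 0.24, limma adjusted p = 0.0896) in Veh and 0.65 (SE 0.23, limma adjusted p = 0.04) in 29P mice, and 0.22 and 0.30 after TMM. Without S18, S19 and S20 it was 0.81 (limma adjusted p = 0.0236) and 0.55 (limma adjusted p = 0.0397), and 0.47 and 0.20 after TMM, neither called.

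Ddit3 (CHOP, chr10:127290774-127296288, plus strand), a transcription factor downstream of Atf4 that favours cell death, had a log2 fold change of 0.32 (SE 0.19, limma adjusted p = 0.209) in Veh mice. In 29P mice it rose by 0.53 (SE 0.19, limma adjusted p = 0.0394), from 12.1 to 15.9 CPM in Sham 29P to 16.1 to 27.6 in TAC 29P. After TMM the values were −0.01 and 0.18. Without the atrial libraries the change in 29P mice was 0.43 (limma adjusted p = 0.0592). Ddit3 shares its place with Mars, a tRNA synthetase gene on the opposite strand.

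Of the 2 regulatory subunits that direct eIF2 dephosphorylation, each was called in 1 comparison. Ppp1r15b (chr1:133131143-133139783, plus strand), the constitutive subunit, was at 23.9 to 29.9 CPM in Sham Veh, 26.4 to 31.9 in Sham 29P, 33.9 to 44.8 in TAC Veh and 30.7 to 44.3 in TAC 29P. It rose in Veh mice by 0.48 (SE 0.14, limma adjusted p = 0.0197) and its change in 29P mice was 0.24 (SE 0.13). Ppp1r15a (GADD34), the inducible subunit, had changes of 0.60 (SE 0.27, limma adjusted p = 0.094) and 0.74 (SE 0.26, limma adjusted p = 0.0358). After TMM no change of either gene was called. Those of Ppp1r15b were 0.14 and −0.11. Eif2s1, their target, had changes of 0.01 and 0.11, and −0.33 and −0.25 after TMM, none called.

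**Figure D2:**
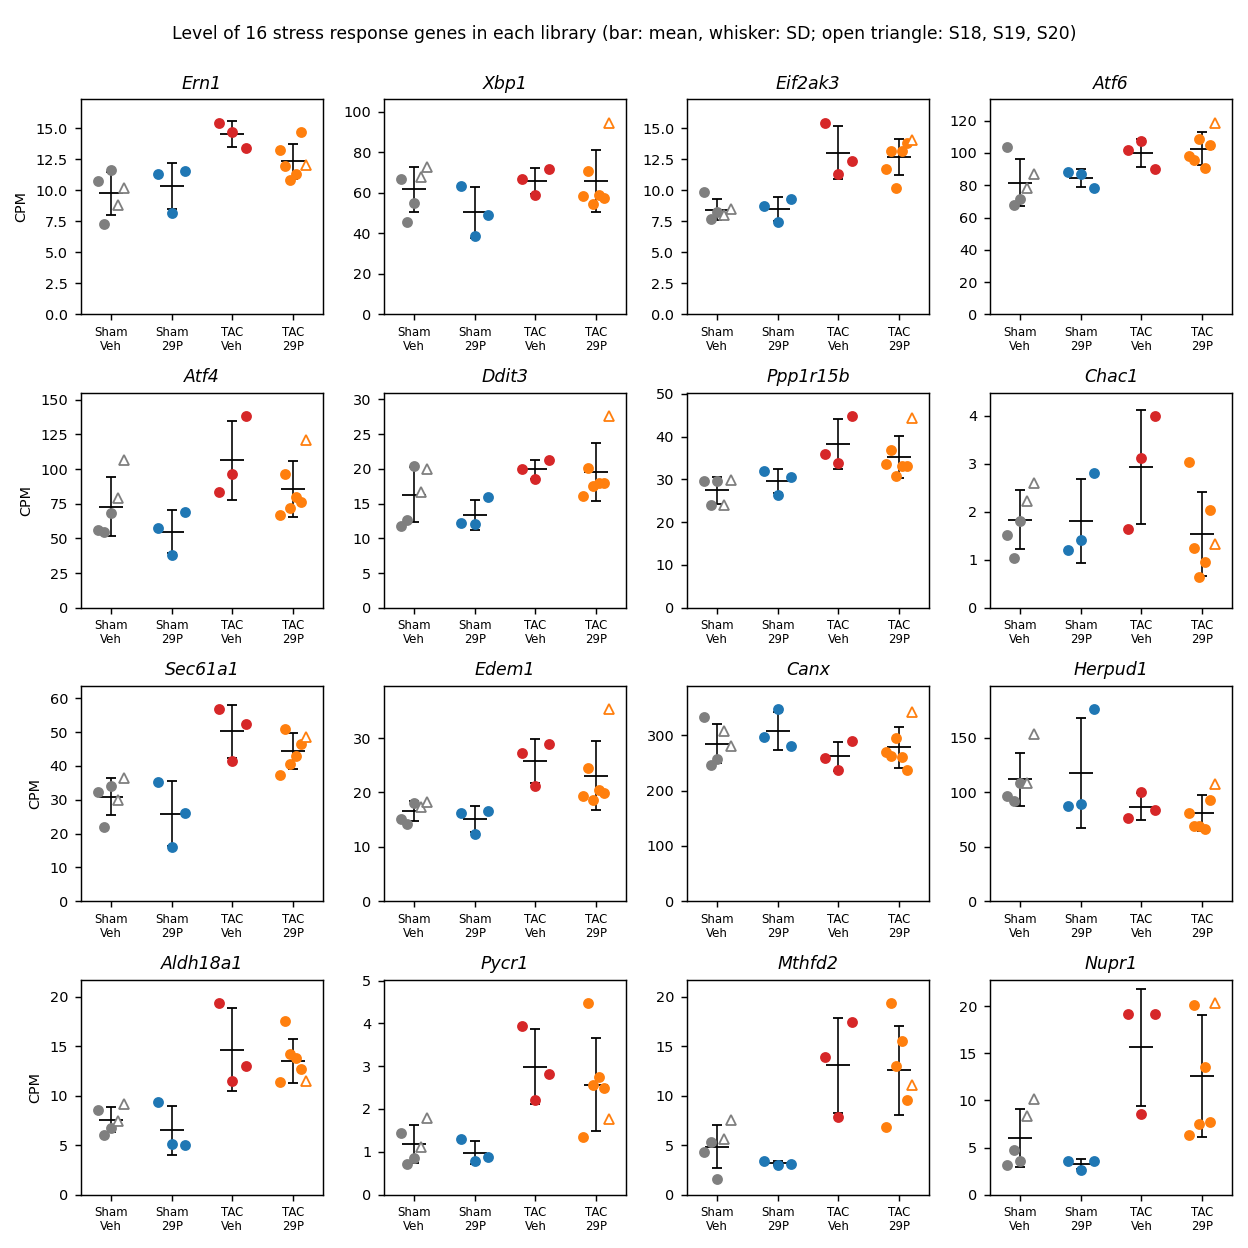
CPM of 16 genes in each library by group, with circles for single libraries, open triangles for S18, S19 and S20, bars for the group mean and whiskers for the SD (n = 5, 3, 3 and 6). In Eif2ak3, Sec61a1, Edem1 and Aldh18a1 every TAC library lies above every Sham library, as in 9.52% of all genes (after TMM this held for Aldh18a1 alone of the 38), and in Canx, Herpud1, Xbp1 and Chac1 the surgery groups overlap.

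Among the ER genes, Sec61a1 and Edem1 rose in both comparisons, while most chaperones did not pass the test. Sec61a1 (chr6:88503579-88518905, minus strand), the pore of the translocation channel, was at 32.3, 21.9, 34.0, 29.9 and 36.3 CPM in Sham Veh and 56.7, 41.5 and 52.5 in TAC Veh. In Sham 29P it was at 35.4, 16.1 and 26.0, and in TAC 29P at 37.2 to 50.9 (median 44.7). The 9 TAC libraries lay above the 8 Sham libraries as deposited, as in 9.52% of all genes, and overlapped them after TMM. The log2 fold change was 0.71 (SE 0.21, limma adjusted p = 0.0209) and 0.85 (SE 0.20, limma adjusted p = 0.00731). After TMM it was 0.37 (adjusted p = 0.125) and 0.49 (adjusted p = 0.0396). Without S14, the Sham 29P library with the fewest reads, the latter was 0.26 (adjusted p = 0.323).

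Edem1 (chr6:108828641-108859356, plus strand), which helps to route misfolded glycoproteins to degradation, was at 14.2 to 18.2 CPM in Sham Veh, 12.4 to 16.7 in Sham 29P, 21.2 to 28.8 in TAC Veh and 18.6 to 35.3 in TAC 29P. All 9 TAC libraries lay above all 8 Sham libraries, as in 9.52% of all genes. It rose by 0.63 (SE 0.19, limma adjusted p = 0.0234) in Veh and 0.58 (SE 0.18, limma adjusted p = 0.0238) in 29P mice. After TMM the changes were 0.29 and 0.23, not called, and the libraries overlapped. Sec61b, the small channel subunit, and Pdia4, a disulfide isomerase, rose in 29P mice by 0.72 and 0.79, and after TMM their changes of 0.37 and 0.44 were not called. Derl1 and Derl2, of the channel that carries proteins out for degradation, rose in 29P mice by 0.31 and 0.27, less than the median gene, and after TMM were at −0.05 and −0.09.

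The 11 other ER genes had log2 fold changes from −0.35 to 0.54 in Veh mice and from −0.48 to 0.66 in 29P mice, none called as deposited. They are the chaperones and folding factors Calr, Canx, Hyou1, Pdia3, Pdia6, Sdf2l1, Creld2 and Manf and the degradation genes Sel1l, Syvn1 and Herpud1. Canx, Herpud1 and the genes not named before are described with their values already seen. Calnexin (Canx, chr11:50293961-50325673, minus strand), a membrane chaperone of glycoproteins, was at 246 to 333 CPM in Sham Veh, 280 to 347 in Sham 29P, 237 to 290 in TAC Veh and 237 to 341 in TAC 29P. Its log2 fold change was −0.12 (SE 0.13) in Veh and −0.15 (SE 0.12) in 29P mice as deposited. After TMM it was −0.45 (SE 0.14, limma adjusted p = 0.0519) and −0.51 (SE 0.14, limma adjusted p = 0.0265), and −0.34 in 29P mice without S14 (limma adjusted p = 0.214).

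Herpud1 (chr8:94386438-94395377, plus strand), a membrane protein of ER degradation, was at 92.1 to 153.9 CPM in Sham Veh, 87.3, 89.2 and 176.3 in Sham 29P, 76.0, 100.7 and 83.7 in TAC Veh, and 66.6 to 107.9 in TAC 29P. It had the lowest change of the 38 genes in Veh mice, −0.35 (SE 0.22, limma adjusted p = 0.225), and in 29P mice, −0.48 (SE 0.21, limma adjusted p = 0.0896). After TMM it was at −0.69 (limma adjusted p = 0.0553) and fell by 0.83 (limma adjusted p = 0.021), and without S14 it was at −0.92 in 29P mice (limma adjusted p = 0.0695). Without the atrial libraries it fell by 0.56 in 29P mice as deposited (limma adjusted p = 0.04). Its RefSeq promoter holds the C/EBP-ATF element shown above, as do those of Asns, Pycr1 and Nupr1, which rose.

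**Figure D3:**
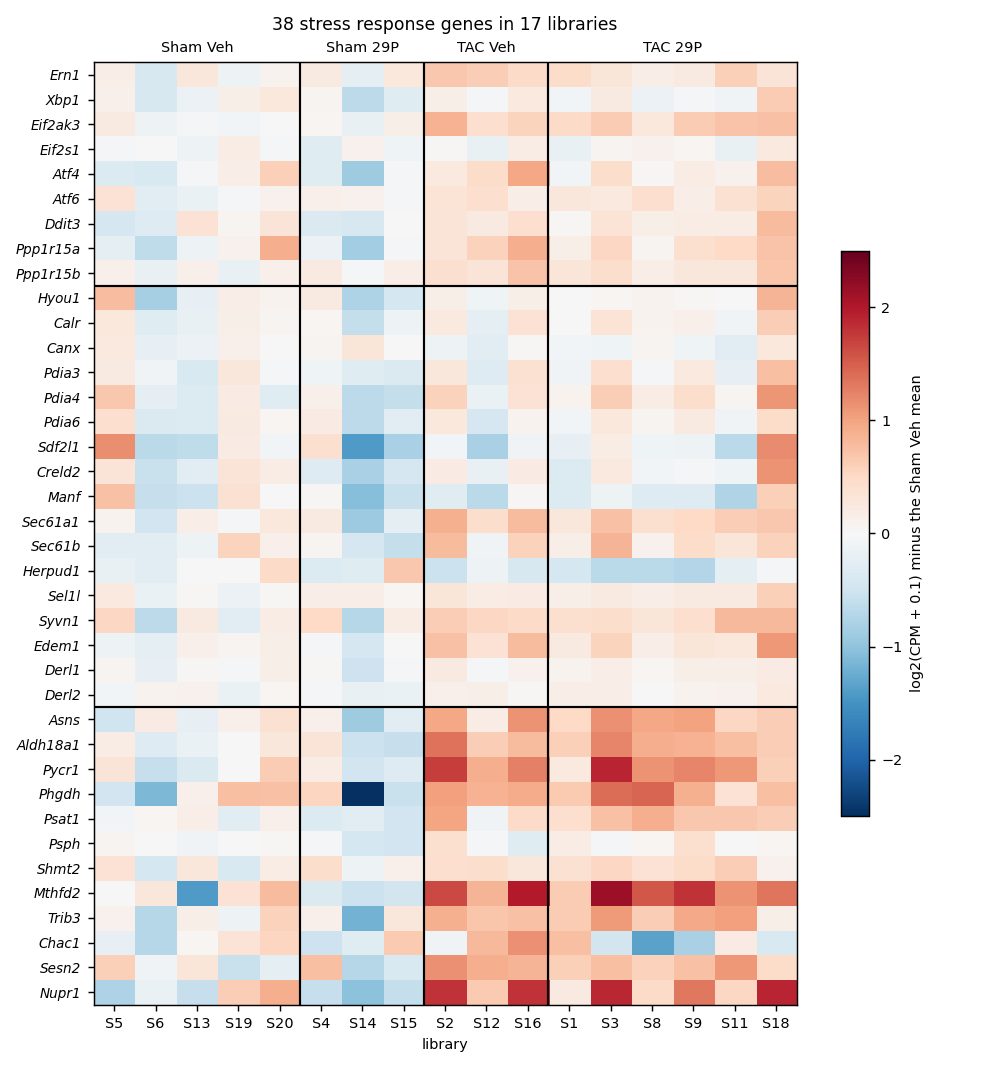
Log2 of CPM + 0.1 minus the Sham Veh mean for 38 genes (rows, in 3 sets) in 17 libraries (columns), red for above and blue for below. The Atf4-linked rows are above 0 across the TAC libraries except Chac1, Psph and Psat1 in S12, the Herpud1 row is below 0 in all 9 TAC libraries, and in S5 and S18 several chaperone rows are red. The 0 of Phgdh in S14 lies beyond the colour scale.

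Of the Atf4-linked genes, Mthfd2 (chr6:83305691-83325908, minus strand), the mitochondrial enzyme of the folate cycle that is low in most adult tissue, changed most in Veh mice. It was at 4.29, 5.28, 1.57, 5.59 and 7.54 CPM in Sham Veh, 3.37, 2.96 and 3.11 in Sham 29P, 13.9, 7.87 and 17.4 in TAC Veh, and 6.80 to 19.4 (median 12) in TAC 29P. Within each treatment the TAC libraries lay above the Sham libraries, as in 27.6% of all genes in Veh and 25% in 29P mice. It was 2.82-fold higher in Veh mice (log2 fold change 1.50, SE 0.40, limma adjusted p = 0.0145) and 3.69-fold in 29P mice (1.89, SE 0.38, limma adjusted p = 0.00365). After TMM the changes were 1.16 (adjusted p = 0.0659) and 1.54 (adjusted p = 0.0165), and the latter was 1.57 without S14 (adjusted p = 0.0803). Shmt2, the enzyme that feeds this cycle from serine, had changes of 0.38 (SE 0.18) and 0.26 (SE 0.18), near the median gene and not called, and 0.05 and −0.10 after TMM.

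Both proline synthesis genes rose. Aldh18a1 (chr19:40550257-40588463, minus strand), which starts the pathway, was at 8.58, 6, 6.70, 7.46 and 9.14 CPM in Sham Veh, 9.36, 5.15 and 4.99 in Sham 29P, 19.4, 11.5 and 13 in TAC Veh, and 11.4 to 17.5 (median 13.2) in TAC 29P. All 9 TAC libraries lay above all 8 Sham libraries, also after TMM, where 1.6% of all genes did so. It was chosen for description after its values were seen. The log2 fold change was 0.92 (SE 0.22, limma adjusted p = 0.00943) in Veh and 1.09 (SE 0.21, limma adjusted p = 0.00313) in 29P mice, and 0.59 (adjusted p = 0.0449) and 0.74 (adjusted p = 0.0132) after TMM. Both calls after TMM depended on the libraries, since the Veh value was 0.68 without the atrial libraries (adjusted p = 0.0529) and the 29P value 0.68 without S14 (adjusted p = 0.0836).

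Pycr1 (chr11:120635712-120643769, minus strand), which completes proline, was at 0.72 to 1.80 CPM in Sham Veh, 0.78 to 1.29 in Sham 29P, 2.20 to 3.94 in TAC Veh and 1.34 to 4.48 in TAC 29P. It rose 2.46-fold in Veh mice (log2 fold change 1.30, SE 0.35, limma adjusted p = 0.0154) and 2.35-fold in 29P mice (1.24, SE 0.34, limma adjusted p = 0.0139). After TMM the changes were 0.98 (adjusted p = 0.0521) and 0.91 (adjusted p = 0.0591). Collagen is rich in proline, and the sum of 8 fibroblast markers, 3 collagen chains among them, was also higher, at 812 to 1475 CPM over the Sham and 1498 to 4109 over the TAC libraries. None of the 8 markers was at 0 in any group, and their part in the results was not tested.

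Of serine synthesis, Phgdh, the first enzyme, and Psat1, the second, rose in 29P mice, and Psph, the last, did not pass the test. Phgdh was near the filter, at 0 to 0.963 CPM in Sham and 0.715 to 1.64 in TAC libraries, and rose 3.51-fold in 29P mice (log2 fold change 1.81, SE 0.54, limma adjusted p = 0.0196). Without S14, where it was listed at 0, the change was 0.93 (limma adjusted p = 0.197), and after TMM of all libraries it was 1.60 (limma adjusted p = 0.0605). Psat1 was at 2.29 to 3.66 CPM in the 8 Sham libraries, 6.49, 3.03 and 4.53 in TAC Veh and 4.34 to 6.16 in TAC 29P. It rose by 1.03 (SE 0.20, limma adjusted p = 0.00298) in 29P mice, and by 0.68 after TMM (adjusted p = 0.0265), and its change in Veh mice was 0.46 (SE 0.21, limma adjusted p = 0.103). The changes of Psph were 0.02 and 0.43, and −0.31 and 0.08 after TMM, none called. Asns, which makes asparagine, rose by 0.76 (limma adjusted p = 0.0473) in Veh mice and 1.14 (limma adjusted p = 0.00659) in 29P mice, and after TMM by 0.80 in 29P mice (adjusted p = 0.0463), with 0.43 in Veh mice not called. After TMM without S14, Psat1 was at 0.80 (adjusted p = 0.0562) and Asns at 0.60 (adjusted p = 0.272) in 29P mice.

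The remaining Atf4-linked genes encode stress regulators rather than enzymes of synthesis. Nupr1 (chr7:126623249-126630861, minus strand), a small nuclear stress protein, was at 3.11, 4.79, 3.57, 8.36 and 10.1 CPM in Sham Veh, 3.60, 2.61 and 3.52 in Sham 29P, 19.2, 8.51 and 19.2 in TAC Veh, and 6.30 to 20.4 (median 10.6) in TAC 29P. The 2 highest Sham values were those of S19 and S20, which hold atrial transcripts. Its log2 fold change was 1.43 (SE 0.43, limma adjusted p = 0.0254) in Veh and 1.78 (SE 0.42, limma adjusted p = 0.00736) in 29P mice. Without the 3 atrial libraries it was 1.93 (adjusted p = 0.00886) and 1.61 (adjusted p = 0.00719). After TMM of all libraries it was 1.09 (adjusted p = 0.1) and 1.43 (adjusted p = 0.0294), and without S14 the latter was 1.36 (adjusted p = 0.147).

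Sesn2 (sestrin 2, chr4:132492032-132510501, minus strand), which restrains mTORC1, was at 1.65 to 3.79 CPM in Sham Veh and 4.59 to 5.59 in TAC Veh. These did not overlap, as in 27.6% of all genes. Sesn2 was at 1.48 to 4.24 in Sham 29P and 3.46 to 5.40 in TAC 29P. It rose by 0.97 (SE 0.29, limma adjusted p = 0.0252) and 0.82 (SE 0.28, limma adjusted p = 0.036), and after TMM by amounts that were not called, 0.64 and 0.48. Trib3, a pseudokinase induced by Atf4 and Ddit3, rose in 29P mice by 0.99 (limma adjusted p = 0.0255), and its change in Veh mice was 0.77 (limma adjusted p = 0.0811). The changes after TMM were 0.65 and 0.45, not called. Fgf21, a stress hormone, was at 0 to 0.138 CPM in the Sham and 0.0447 to 0.422 in the TAC libraries, and was not tested.

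Chac1, which breaks down glutathione, was the only one of the 38 genes past an unadjusted threshold for 29P. It passed within TAC, where 2.06% of all genes did. It was at 1.65, 3.13 and 4 CPM in TAC Veh and 0.630 to 3.04 (median 1.28) in TAC 29P, and the groups overlapped. In TAC 29P against TAC Veh it had a log2 fold change of −0.96 (95% interval −1.83 to −0.09), with a limma adjusted p of 1. It was −0.52 in the model with a term for those runs, and in fits without 1 library it ranged from −1.31 to −0.70. After TMM without the atrial libraries it was −0.92 and not past the unadjusted threshold. Its change after TAC was 0.62 (SE 0.43) in Veh and −0.29 (SE 0.41) in 29P mice (0.30 and −0.62 after TMM), and the difference of −0.91 (95% interval −2.16 to 0.34) was not called.

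No member was called between TAC 29P and TAC Veh, where 0 of 16218 genes (0%) passed the adjusted and 334 (2.06%) the unadjusted threshold. The changes ran from −0.96 in Chac1 to 0.36 in Sdf2l1, with a median of −0.01 over the 38. Some intervals were narrow, such as −0.26 to 0.25 for Eif2s1, −0.17 to 0.23 for Derl2 and −0.33 to 0.26 for Eif2ak3. Those of the Atf4-linked genes were wide, −0.87 to 0.74 for Mthfd2 and −1.26 to 0.50 for Nupr1, so that neither a smaller nor a larger level under 29P within these limits was detectable. The surgery comparisons in Veh and in 29P mice share no libraries, and the counts of 11 and 19 genes rest on groups of different size.

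In Sham mice 29P gave 0 calls among the 38 and 0% of all genes, and 0 members were past the unadjusted threshold, where 6.72% of all genes were. The member changes ran from −0.89 (Phgdh) to 0.15 (Shmt2) with a median of −0.25, against −0.06 for all genes. Leaving out S18, S19 and S20 brought that median to −0.14. For the difference between the 29P change in TAC and that in Sham mice, 0 members and 0% of all genes were called, and 0 members and 2.85% of all genes were past the unadjusted threshold. The nearest was Psat1, at 0.57 (95% interval −0.03 to 1.18).

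**Figure D4:**
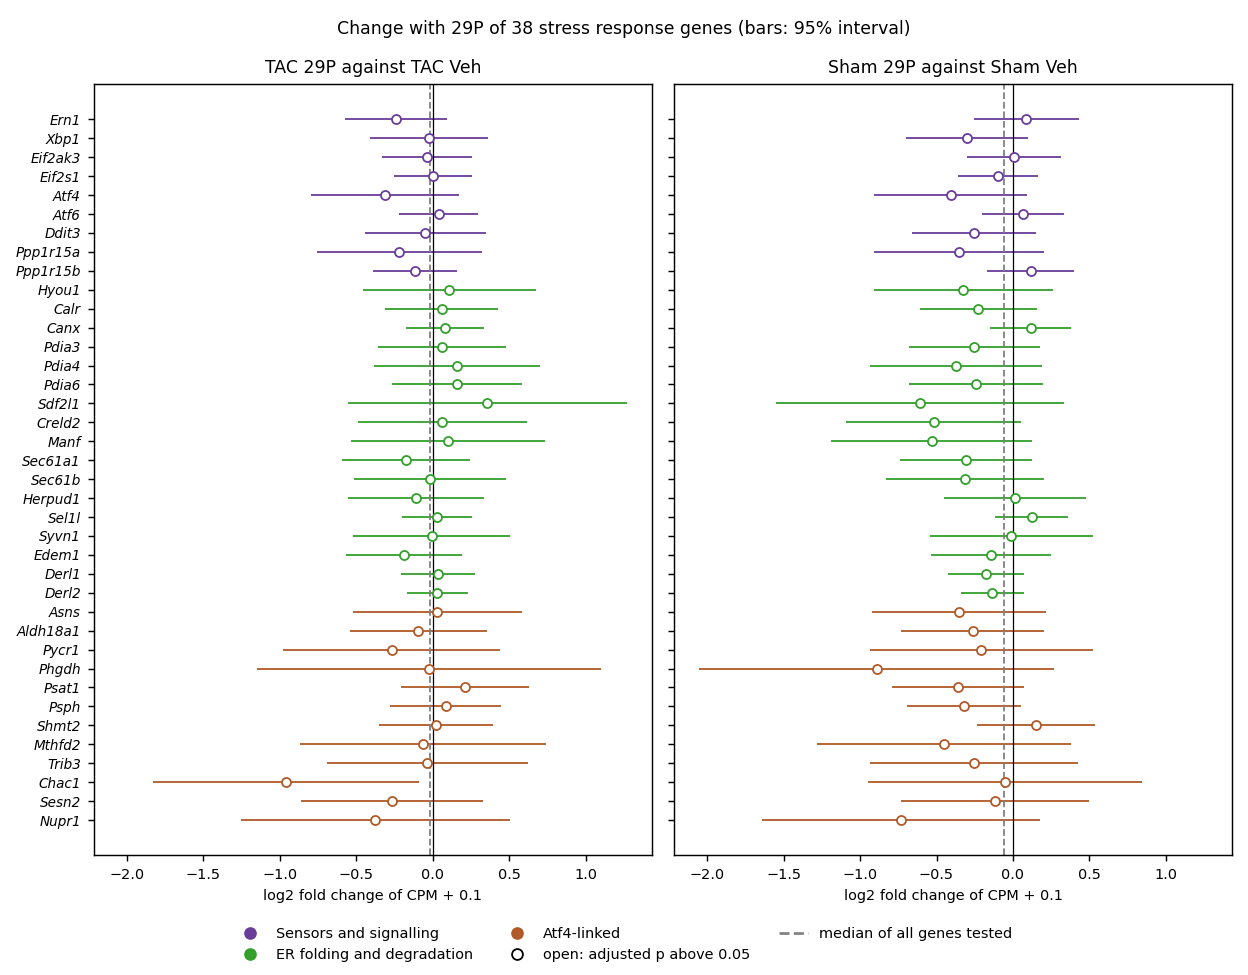
Log2 fold change of CPM + 0.1 with 29P in TAC (left) and Sham mice (right) for 38 genes, with 95% intervals from limma and a dashed line at the median of all genes tested (−0.02 and −0.06). All circles are open (adjusted p above 0.05), and Chac1 in TAC mice is the 1 gene whose interval leaves out 0.

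The contrast between the sets does not hang on the scaling, because a common factor cancels, apart from the small constant, when the mean log2 level of one set is subtracted from that of another in the same library. The mean of the 12 Atf4-linked genes minus that of the 17 ER genes was −3.87 to −3.21 in Sham Veh and −3.76 to −3.55 in Sham 29P. It was −2.87 to −2.77 in TAC Veh and −3.06 to −2.77 in the TAC 29P libraries other than S18. S18 was at −3.62, among the Sham values and below S19 (−3.59) and S20 (−3.21), the Sham libraries of its run of animal numbers. So 8 of 9 TAC libraries lay above all 8 Sham libraries in this difference, and the highest Sham library was S20. This is a description of genes chosen with earlier results known, and was not tested.

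S18 stood apart through its ER genes and its sensors, whose means of 5.87 and 5.47 were each the highest of all libraries. Its Atf4-linked mean of 2.25 lay within the other TAC 29P libraries (2.17 to 2.71). In S18, Hyou1, Creld2, Pdia4 and Edem1 were at 60.5, 23.7, 70.7 and 35.3 CPM, each the highest of the 17. S5 of Sham Veh, which has few atrial transcripts, had the highest Sham mean of ER genes, 5.52, with Sdf2l1 at 10.6 and Manf at 77.2 CPM. These and its Hyou1 of 57.3 CPM were above 8 of 9 TAC libraries or all 9.

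**Figure D5:**
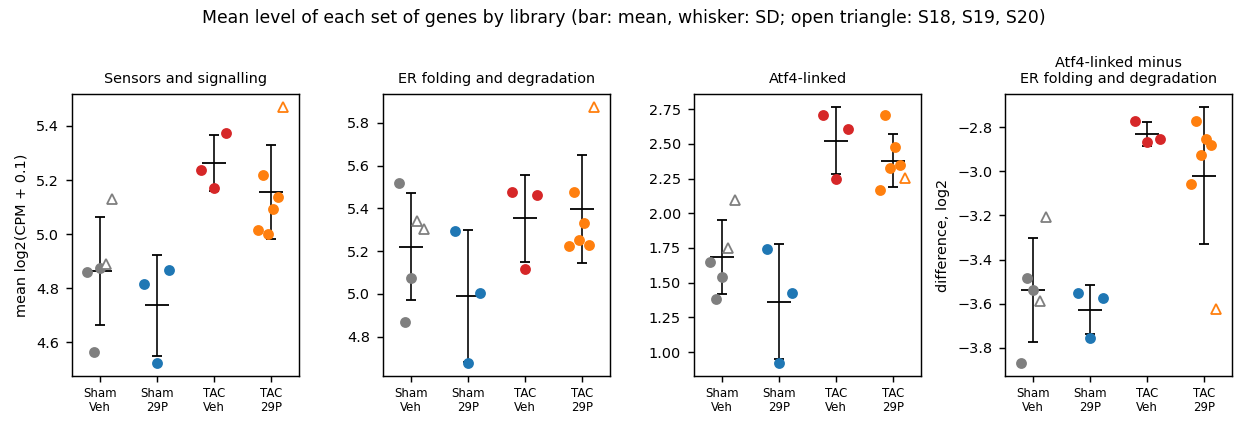
Mean log2 of CPM + 0.1 over the genes of each set in every library, and at the right the Atf4-linked mean minus the ER mean, with group means, SD whiskers and open triangles for S18, S19 and S20. In the right panel 8 of 9 TAC libraries lie at −3.06 or above and all Sham libraries at −3.21 or below, with S18 at −3.62.

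The animal numbers in the labels fall into 4 runs, each with at least 1 Sham and 1 TAC library. Run 3 held 1 TAC Veh and 1 Sham 29P library, and run 4 held 1 TAC 29P and 2 Sham Veh libraries. In these runs surgery cannot be told apart from treatment. Run 4 consists of S18, S19 and S20, the libraries with atrial transcripts, so run and atrial transcripts cannot be told apart. The mean of the TAC libraries was above that of the Sham libraries within every run for 29 of the 38 genes and for 54.3% of all genes. The 11 genes called in Veh mice were among the 29, and had been called on these libraries. For Mthfd2 the differences were 1.52, 1.82, 2.45 and 0.76, for Nupr1 1.54, 1.45, 2.41 and 1.14, and for Aldh18a1 0.89, 0.96, 1.37 and 0.48. After TMM they were positive in all 4 runs for Eif2ak3, Atf4, Sec61a1, Edem1, Asns, Aldh18a1, Mthfd2, Sesn2 and Nupr1, 9 of the 38 beside 20.6% of all genes. They were negative in all 4 runs for Eif2s1, Canx, Herpud1, Derl1, Derl2 and Psph, 6 of the 38 beside 19.8% of all genes, with −1.42 to −0.31 for Herpud1. 29P and Veh within TAC could not be compared within runs beyond the first, the only run with both.

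Marker genes of other cell types were summed as well. Summed CPM of 6 macrophage markers were 161 to 322 over Sham and 355 to 578 over TAC libraries, and of 5 endothelial markers 413 to 855 and 727 to 1091. Those of 4 markers of plasma cells, which carry much ER, were 3.9 to 28.6 and 8.6 to 33.1, which overlap. Those of 5 smooth muscle and pericyte markers were 858 to 1222 and 1126 to 1577. Those of 5 erythroid markers were 562 to 2463 over Sham, 3082 to 4992 in TAC Veh and 1036 to 4151 in TAC 29P libraries. No marker of these lists was at 0 throughout a group. In these bulk samples fewer cells of a type and less RNA per cell cannot be told apart, and the part of these cells in the changes of the stress genes was not tested.

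Other genes of the same pathways were counted in the same way. Of all genes, 23.6% were called higher in Veh and 31.5% in 29P mice, and 1.98% and 1.15% lower. After TMM 4.27% of all genes were called higher and 5.9% lower in Veh mice, and 6.06% and 5.16% in 29P mice. These shares apply to each list below. Of 30 other Atf4-linked genes tested, with a median of 0.49 in Veh and 0.39 in 29P mice, 13 rose and 2 fell in Veh mice and 14 rose and 1 fell in 29P mice. Gdf15, a hormone secreted under stress, rose most, by 2.93 (limma adjusted p = 0.00196) and 2.69 (limma adjusted p = 0.00274), and after TMM by 2.62 and 2.39, both called. Next were Mthfd1l, of mitochondrial folate metabolism, at 1.50 (limma adjusted p = 0.0541) in Veh mice, and the neutral amino acid carrier Slc1a4 at 1.38 (limma adjusted p = 0.00832) in 29P mice. Gpt2, a mitochondrial alanine transaminase, fell by 0.53 and 0.56, Aldh1l2 fell by 0.88 in Veh mice, and the lowest in 29P mice was Cth at −1.11 (limma adjusted p = 0.0565). Of 12 aminoacyl-tRNA synthetases in the list, a group singled out after the values were seen, 9 rose in Veh and 11 in 29P mice and 0 were called after TMM. Over the whole list after TMM 2 rose and 3 fell in Veh mice, and 3 rose and 4 fell in 29P mice.

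Of 25 other ER chaperone and translocation genes, 5 and 10 rose (23.6% and 31.5% of all genes did) and 0 fell, and after TMM 0 and 1 rose and 2 and 1 fell. The isomerase Pdia5 was highest at 1.04 and 1.21, called in both and after TMM in 29P mice, with Spcs3 of signal peptidase next in Veh mice (0.74) and the cyclophilin Ppib next in 29P mice (0.69). Hspa5 (BiP), the main ER chaperone and a standard target of Atf6 and Xbp1, was lowest in Veh mice at −0.51 (SE 0.22, limma adjusted p = 0.093), and at −0.19 in 29P mice, and after TMM it fell by 0.85 in Veh mice (limma adjusted p = 0.0235). Dnajb9, an ER cochaperone, was lowest in 29P mice at −0.22, and Sec61g was next lowest in Veh mice at −0.45. Of 14 other ER degradation genes, 5 and 7 rose, led by Os9 (0.66) and Edem2 (0.74), with Edem2 next in Veh mice (0.56) and Man1b1 next in 29P mice (0.65). The lowest was Erlec1, at −0.07 and −0.01, then Rnf5 (0.03) and Vcp (0.09), and none was called after TMM.

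Of 19 other sensor and eIF2 genes, 6 and 9 rose, beside the same shares of all genes. Creb3l2, an ER membrane transcription factor, was highest in Veh mice at 1.05, with Atf3 next at 0.86 and not called. Atf5, translated like Atf4 when eIF2 is phosphorylated, was highest in 29P mice at 1.36 (limma adjusted p = 0.00286), with Creb3l1 next at 1.15. Oma1, the mitochondrial protease that relays stress to eIF2, was lowest at −0.22 and −0.08, then Eif2b3 (−0.06) in Veh and Cebpb (−0.07) in 29P mice. After TMM 0 rose and Oma1 fell in Veh mice, and Atf5 and Creb3l1 rose and Oma1 fell in 29P mice. These lists, like the 39 genes, were drawn up with earlier results of these data known.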

How the data were processed

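Bulk RNA-sequencing values of 17 libraries of mouse left ventricular apex were analysed. In Partek Flow, the authors ran STAR 2.3.7 against the mouse build mm10 with Gencode genes and deposited CPM to which 0.0001 was added. They removed 3 libraries, of which 1 was a TAC Veh library that clustered with Sham mice and the others had few reads. The TAC Veh libraries were thus chosen in part on expression, which can widen their difference from Sham Veh, and this was not tested. The counting tool and strand setting are not given in the sources used here. Of the values below 1 CPM, 79.0 to 82.3% lay within 0.02 of a whole multiple of the step of 1 read, so read counts were not recovered and no count model was used. Depth was estimated from that step.

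CPM of 0.5 in at least 3 libraries left 16218 genes. Log2(CPM + 0.1) was fitted with limma 3.58.1 (lmFit, contrasts.fit and eBayes with trend) in R 4.3.3, with 1 mean per group, 5 contrasts and Benjamini-Hochberg adjustment over all genes tested. Tests were two-sided and limma's intervals are 95%. The fit was tested on simulated data. P-values measure the spread between the libraries of a group, each labelled as 1 animal. TMM factors were computed from the CPM values without read weights, trimming 30% of ratios and 5% of levels.

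The members and lists were chosen with earlier results of these data known. Values by library were given for the main sensors and factors, the 4 genes with the largest change per set among those called in Veh mice, and any gene past an unadjusted p of 0.05 for 29P. The other genes described were picked after their values were seen. Gene positions are those of GENCODE vM21, where all 39 genes have the start given in the deposited table, and promoters are those of RefSeq. Figures were drawn with matplotlib 3.10.9 in Python 3.11.15. Alternatives comprised other scalings, filters and constants, the run of animal numbers, only the groups compared and each library left out. Those that left out atrial libraries or combined TMM with a left-out library were chosen after seeing the data.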

Additional observations from a re-analysis of the deposited data

Results flagged for a closer look

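In the TAC 29P group S18 lay far above the other 5 libraries in 2 genes. Hyou1, an ER chaperone, was at 60.5 CPM in S18 and 33.6 to 35.9 in the others, a gap of 0.885 of the whole range. Sel1l, an adaptor of ER degradation, was at 84.0 CPM in S18 and 62.1 to 65.6 in the others, a gap of 0.817 of the range. These were the 2 largest relative gaps among 76 tests of 38 genes in the Sham Veh and TAC 29P groups, of which chance passes about 1 in 20. S18 is 1 of the 3 libraries with atrial transcripts, whose part in these values was not tested.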

How the results depend on the processing

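Depth (1 CPM stood for 14.2 to 23.8 reads) and groups of 3 limit what could be detected, above all for Phgdh, Chac1 and Fgf21. The main dependence was on scaling. Genes called higher in Veh mice numbered 11 as deposited, 1 after TMM, 2 after median-of-ratios scaling, 7 with mitochondrially encoded genes left out of the total, 3 after TMM without the atrial libraries and 3 after TMM without S14, and 17 at an unadjusted p of 0.05. In 29P mice they numbered 19 as deposited, and the 5 settings before the last gave 6, 6, 9, 6 and 0. A term for the runs of animal numbers gave 5 in 29P mice. Over all genes, 3827 of 16218 were called higher in Veh and 5110 in 29P mice as deposited. TMM called 692 and 983 of 16218 higher, and median-of-ratios scaling 749 and 978. With mitochondrially encoded genes left out, 1722 and 2088 of 16203 were called higher. Genes called lower in Veh mice numbered 2 after TMM without S14. In 29P mice 2 were lower after TMM, after median-of-ratios scaling and after TMM without the atrial libraries. There, 1 was lower without mitochondrially encoded genes, without the atrial libraries and at an unadjusted p. Over all genes, 837 of 16218 were called lower in 29P mice after TMM and 832 after median-of-ratios scaling. Without mitochondrially encoded genes 368 of 16203 were. The share of all genes called is not given here for fits with libraries left out, with the run term or at an unadjusted p after TAC. Within TAC, 1 gene was past an unadjusted p for 29P, as were 2.06% of all genes. Leaving out each library gave 0 to 13 genes higher in Veh and 3 to 25 in 29P mice, with 0 lower in Veh and 0 to 1 in 29P mice, and 0 calls for 29P throughout. Other filters, other constants and fits of only the groups compared kept these counts within 1.5 times. The cause of these differences was not tested. No paired analysis was possible because the library numbers are not shared between groups.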

Other observations

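Among the other genes of the same pathways, none was called for 29P within TAC, where the limma adjusted p was 1 for those described here. They were chosen after their values were seen, as past or near an unadjusted threshold of 0.05. Gdf15, the gene of these lists that rose most after TAC, had a log2 fold change of −1.21 (SE 0.51) in TAC 29P against TAC Veh and of −0.97 (SE 0.52) in Sham 29P against Sham Veh. Aldh1l2, a mitochondrial folate dehydrogenase, had 0.69 within TAC (SE 0.30). Cebpg, a C/EBP partner of Atf4, had −0.35 (SE 0.17), and Ddit4, a stress-induced inhibitor of mTORC1, had −0.96 (SE 0.51). For Gdf15 the 29P change in TAC mice minus that in Sham mice was −0.24 (SE 0.73, limma adjusted p = 0.999).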
